A study of Mus musculus with 28 samples.

Results

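Semaphorins, plexins, neuropilins, ephrins and Eph receptors are the genes described here, in single cells of the mouse cortex. They were chosen by gene symbol: semaphorins of classes 3 to 7, plexins A to D, both neuropilins, ephrins A and B and the Eph receptors. The rule found 53 of the 23453 genes of the exonic count table. They are 7 secreted class 3 semaphorins, 13 membrane-bound semaphorins, 2 neuropilins, 9 plexins, 5 ephrin-A and 3 ephrin-B genes, 9 EphA and 5 EphB receptors. All 53 were also listed in the intronic table.

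Semaphorins are secreted or membrane-bound cues that steer growing axons and dendrites. Plexins are their receptors, and most class 3 semaphorins need a neuropilin as the ligand-binding partner of an A-type plexin. Ephrins are cell-bound ligands of the Eph receptor tyrosine kinases: ephrin-A proteins are held in the membrane by a lipid anchor, ephrin-B proteins span it, and signals run into both the receptor cell and the ligand cell. In the cortex both systems take part in axon guidance, neuron migration and synapse formation, and several members are also known from glia.

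The labels describe 28 single cells from cortex. Of these, 12 neurons and 8 astrocytes came from primary culture of C57/BL6 mice and were harvested by pipette, and 8 interneurons of C57/BL6/N mice were taken by patch-clamp pipette from acute slices of prefrontal cortex. No cell carries an engineered allele or a drug in the labels, and no animal or culture is named for any cell; for the slices no age is given. For the cultured cells the sources differ: the labels' protocol speaks of a male mouse aged 3 months that was perfused with fixative, which the study's methods give for its tissue sections, and the study describes its cultured brain cells as embryonic. Cultured cells and interneurons also differed in library kit (a modified TruSeq Nano DNA kit against a TruSeq Stranded kit) and in sequencer (NextSeq against HiSeq).

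The 28 columns of the count tables bear codes that occur in no label, so 0 columns were matched to a sample and no cell type was assigned to any of them. The columns were treated as 1 pooled sample of 28 cells, with no test and no error between cells. Their codes fall into 3 kinds, and values are set side by side for these: 8 columns coded BRP564 and BRP566 to BRP572 (the BRP564 set), 12 columns coded BRP528, BRP529 and BRP534 to BRP543 (the BRP528 set) and 8 columns coded F (the F set). These sets are ranges of codes, and no label links a code to a group. Their sizes equal those of the labelled groups: 8 astrocytes, 12 neurons and 8 interneurons. Equal sizes alone do not identify a column, and the sets were not taken as those groups. What separates them, whether cell type, library kit, depth or culture, cannot be told apart.

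Exonic totals were 12969692 to 19798892 counts per column in the BRP564 set, 17483754 to 26770944 in the BRP528 set and 838343 to 14831505 in the F set. By counting error alone, a listed 0 allows up to 3 counts. That is 0.152 to 0.231 CPM (counts scaled to an exonic total of 1000000 in the column) in the BRP564 set. It is 0.112 to 0.172 CPM in the BRP528 set and 0.202 to 3.58 CPM in the F set, so a 0 in an F column says least. Transcripts missed before sequencing are not covered by this bound, so a 0 does not show that a gene was silent. Levels below are exonic CPM unless stated, and levels of different genes are compared only per kb of annotated exon. Marker genes listed for cell types moved with the code sets. The 8 astrocyte markers summed to 1522 to 6174 CPM in the BRP564 set, all 8 counted in every column, against 191 to 2463 CPM in the BRP528 set and 0 to 4352 CPM in the F set. The glutamate transporter Slc1a2 carried most of the latter 2 ranges and went the other way, with medians of 192 CPM in the BRP564 set and 804 CPM in the BRP528 set. The other 7 summed to 1424 to 5894 CPM in the BRP564 set, 0.0409 to 1402 CPM in the BRP528 set and 0 to 556 CPM in the F set. The 6 neuron markers summed to 299 to 801 CPM in the BRP564 set, 4737 to 8469 CPM in the BRP528 set and 1608 to 16746 CPM in the F set. The 4 GABAergic markers summed to 564 to 11671 CPM in the F set, 0 to 42.6 CPM in the BRP564 set (median 8.05) and 0.0572 to 2719 CPM in the BRP528 set (median 36.3). The 4 glutamatergic markers summed to 0.0498 to 1057 CPM in the BRP528 set (median 467), 0 to 144 CPM in the BRP564 set and 0 to 4.92 CPM in the F set. Markers of other cells were also uneven. The precursor marker Pdgfra was counted in all 8 BRP564 columns (median 18.0 CPM) and reached 257 CPM in BRP529 and 200.1 CPM in BRP541. The endothelial Kdr was counted in all 8 BRP564 columns (0.101 to 29.5 CPM) and in 4 of the BRP528 set. Of the other 3 endothelial markers, Pecam1 was counted in 1 BRP564 and 5 BRP528 columns (at most 0.760 and 4.74 CPM), Flt1 in 2 of each and Cldn5 in none. The 4 oligodendrocyte markers summed to 0.308 to 172 CPM in the BRP564 set (median 3.90), 0.235 to 610 CPM in the BRP528 set (median 12.0) and 0 to 177 CPM in the F set, and Mbp had medians of 0.501 CPM in the BRP564 set and 10.3 CPM in the BRP528 set. The microglial Csf1r stood at 2093 CPM in F16 and 46.3 CPM in F24, where C1qa was at 0. Columns BRP528 and BRP529 held neuron and astrocyte markers at once: Snap25 stood at 2015 and 607 CPM and the astrocyte water channel Aqp4 at 142 and 418 CPM. Columns F11 and F12 resembled each other more than any other pair of the F set (Pearson r across genes of log2(CPM + 1) 0.954, against 0.19 to 0.489 for the other 27 pairs). Their counts were not equal within counting noise (chi-square per degree of freedom 17.6), but reads are not independent molecules, and whether both columns come from 1 cell cannot be told from the table. Both were kept, and each F median below that moved by over 1.5 times without F12 is also given without it.

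At least 1 exonic count was found in some column for 51 of the 53 genes (96.2%), where 83.2% of all genes of the table had one. The other 2 were the receptor Epha8 and the secreted Sema3g, at 0 in all 28 columns. In at least 14 of the 28 columns 37 of the 53 genes (69.8%) were counted, beside 45.4% of all genes. A column held 30 to 41 of them in the BRP564 set (median 37), 26 to 43 in the BRP528 set (median 36) and 5 to 29 in the F set (median 17.5). The sets thus carried like numbers in both BRP ranges and fewer in the F range, where fewer genes of any kind were counted (2338 to 7218 per column, against 9869 to 12815 in the BRP columns).

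Their summed level differed more than their number. It was 561 to 1279 CPM in the BRP564 set (median 968), 1234 to 4570 CPM in the BRP528 set (median 2963) and 203 to 2211 CPM in the F set (median 1166). The highest value of the BRP564 set, BRP572, exceeded only the lowest of the BRP528 set, which was BRP528 itself. These levels rest on scaling to exonic totals. The TMM factors of edgeR, which multiply that total, were 1.19 to 1.61 in BRP columns and 0.0802 to 0.872 in F columns. They raise F levels against BRP levels, so the place of the F set depends on the scaling. DESeq2 size factors were 1.18 to 1.99 in the BRP564 set and 2.88 to 4.98 in the BRP528 set, which narrows the gap between these. The genes that gave most of the counts differed as well. Epha4 gave the most counts of the 53 in 8 of the 12 columns of the BRP528 set, Plxna2 in 3 and Nrp1 in 1. Among the BRP564 columns Sema6d and Plxnb1 each gave most in 3 of 8. Within an F column 1 gene made up 24.3% to 96.5% of the sum.

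**Figure D1:**
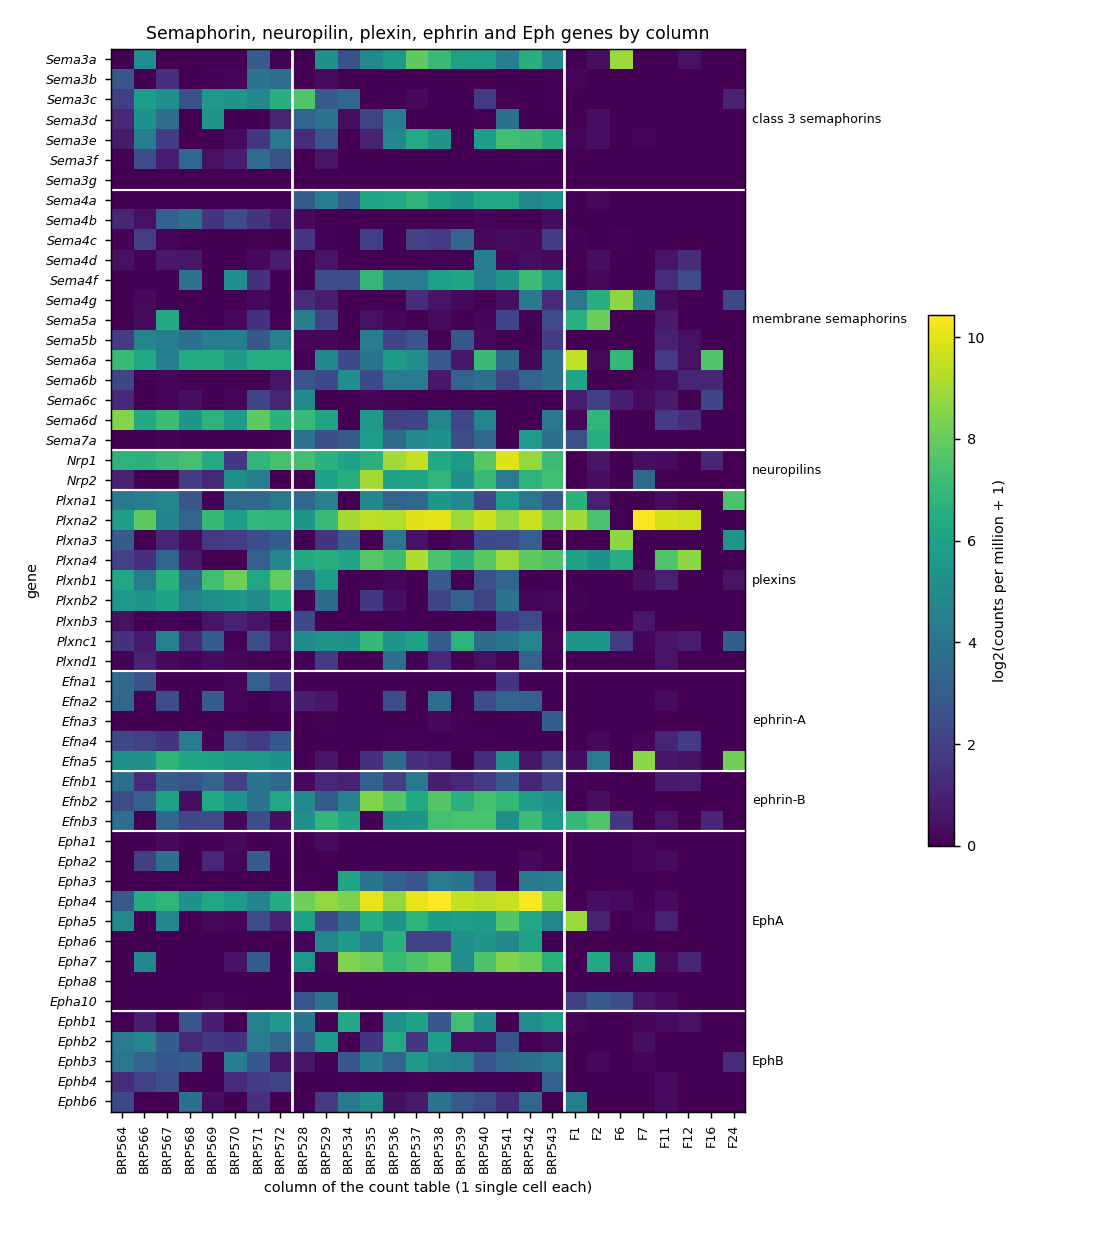
Heat map of the 53 genes (rows, grouped by role) in the 28 columns of the exonic table, coloured by log2(CPM + 1); white lines part the roles and the 3 code sets (BRP564, BRP528 and F, from left). Epha4, Plxna2 and Plxna4 form bright rows in the BRP528 set, Plxnb1, Plxnb2 and Efna5 in the BRP564 set, and the F columns show few genes each, some of them at high level.

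**Figure D2:**
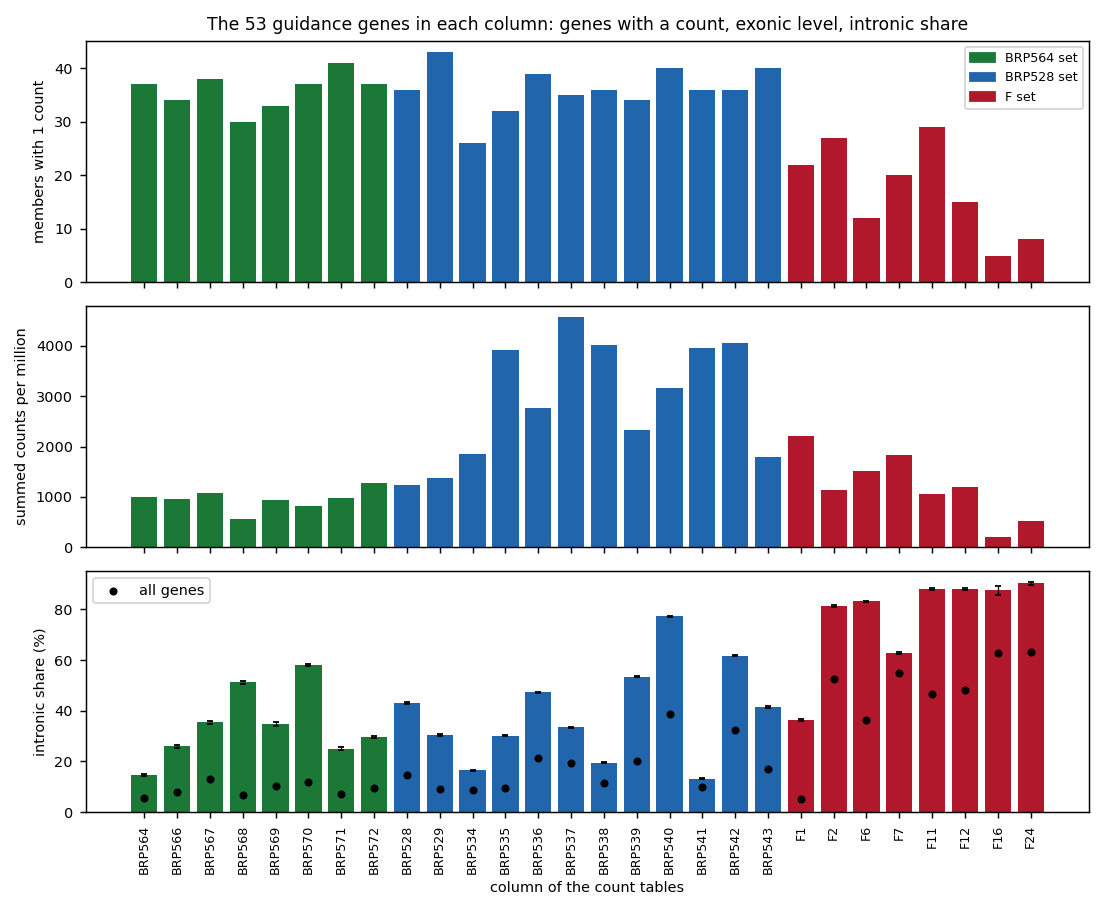
For each column, the number of the 53 genes with at least 1 exonic count, their summed exonic CPM and the intronic share of their counts in percent (bars, coloured by code set, with 95% exact binomial intervals that cover counting error only; black points give the intronic share of all genes). The F columns hold 5 to 29 of the genes, and in all 28 columns the bar of the intronic share lies above the point for all genes.

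Promoter windows are printed for 4 genes whose levels separated the code sets in every column, or nearly so: Epha4 and Sema4a, higher in the BRP528 set, and Plxnb1 and Plxnb2, higher in the BRP564 set. They were picked for their values, and Efna4, Sema4b and Plxna4, which also did not overlap between the BRP sets, are not shown. The windows span 250 bases before to 50 after the annotated start, from RefSeq on GRCm38.p6, read 5′ to 3′ on the gene's strand, and capitals mark CG dinucleotides, the target of cytosine methylation in mammals. Sema4a has 4 such windows and Plxnb2 has 2, of which the most upstream is shown. Epha4 lies at chr1:77515039-77515338 (minus strand, 17 CG), Sema4a at chr3:88461133-88461432 (minus, 4 CG), Plxnb1 at chr9:109095186-109095485 (plus, 36 CG) and Plxnb2 at chr15:89180739-89181038 (minus, 27 CG).
Epha4: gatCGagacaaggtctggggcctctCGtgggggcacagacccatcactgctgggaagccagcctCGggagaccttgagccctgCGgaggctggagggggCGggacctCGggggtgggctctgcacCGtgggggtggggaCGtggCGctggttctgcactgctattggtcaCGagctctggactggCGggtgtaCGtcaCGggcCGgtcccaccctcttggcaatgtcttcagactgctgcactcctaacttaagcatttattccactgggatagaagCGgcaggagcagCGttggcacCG
Sema4a: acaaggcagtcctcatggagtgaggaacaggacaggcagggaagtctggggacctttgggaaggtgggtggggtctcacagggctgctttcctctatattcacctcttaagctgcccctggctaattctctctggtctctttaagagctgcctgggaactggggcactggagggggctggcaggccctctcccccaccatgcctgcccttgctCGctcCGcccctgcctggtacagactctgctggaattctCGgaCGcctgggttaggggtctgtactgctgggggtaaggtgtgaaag
Plxnb1: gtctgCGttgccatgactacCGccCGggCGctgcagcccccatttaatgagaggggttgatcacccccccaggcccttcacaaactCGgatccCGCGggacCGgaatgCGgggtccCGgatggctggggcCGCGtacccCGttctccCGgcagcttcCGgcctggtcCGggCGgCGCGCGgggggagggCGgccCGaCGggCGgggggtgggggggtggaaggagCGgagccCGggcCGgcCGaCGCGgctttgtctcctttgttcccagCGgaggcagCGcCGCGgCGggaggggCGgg
Plxnb2: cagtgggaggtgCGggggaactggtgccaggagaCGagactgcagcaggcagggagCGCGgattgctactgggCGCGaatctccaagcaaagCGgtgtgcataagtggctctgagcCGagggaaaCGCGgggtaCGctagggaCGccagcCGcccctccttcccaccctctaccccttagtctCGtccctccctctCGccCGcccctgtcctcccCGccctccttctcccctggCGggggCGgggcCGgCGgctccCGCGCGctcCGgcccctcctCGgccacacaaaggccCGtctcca

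Windows were found for 47 of the 53 genes, 61 windows in all. The letters CG, which read the same on both strands, occurred at least 20 times in 31 of the 61 windows (50.8%), beside 26.5% of all 32851 windows of this length, and the median was 20 per window against 7. Of the printed windows, both plexin ones were above the members' median and those of Epha4 and Sema4a below it, and the second window of Plxnb2, with 15 CG, was also below it. The printed genes were picked, so their CG counts do not describe the code sets. No methylation was measured in these cells, and the count is a description of the letters only.

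Among the secreted semaphorins, Sema3a, Sema3c and Sema3e were counted most widely. Sema3a, which repels cortical axons through Nrp1 and A-type plexins, stood at 0 to 236 CPM in the BRP528 set (median 45.0) and was counted in 11 of 12 of its columns. In the BRP564 set it was counted in 3 of 8 columns, with at most 33.7 CPM. A single F column, F6, held 465 CPM, the highest value of any column, while 5 of 8 were at 0. Sema3c, which binds both neuropilins, lay the other way round: 2.85 to 91.3 CPM in all 8 columns of the BRP564 set (median 39.4), and a median of 0.0540 CPM in the BRP528 set. The highest Sema3c value nevertheless belonged to BRP528, with 186 CPM, a column with mixed markers. Sema3e, a ligand of Plxnd1, had a median of 1.46 CPM in the BRP564 set and 34.9 CPM in the BRP528 set (0 to 152), with overlapping ranges. Sema3f, a ligand for Nrp2, was low and was counted in all 8 columns of the BRP564 set (0.0620 to 12.4 CPM), in 2 of the BRP528 set and in none of the F set.

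Of the membrane-bound semaphorins, Sema6a was counted in 26 of 28 columns. This transmembrane ligand of Plxna2 and Plxna4 stood at 20.2 to 135 CPM in the BRP564 set (median 82.3) and at 0.0498 to 137 CPM in the BRP528 set (median 12.4). Among the F columns it was 693 CPM in F1, 196 CPM in F16 and 121 CPM in F6, and at most 2.28 CPM in the other 5 columns. Sema6d, a ligand of Plxna1, was 44.3 to 358 CPM in the BRP564 set (median 105). In the BRP528 set it was 0 to 137 CPM (median 10.1), and in the F set only F2, at 115 CPM, was above 3 CPM. The ranges of both genes overlapped between the BRP sets, as the strip plots by gene show.

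Sema4a and Sema4f showed the other distribution. Sema4a, a class 4 semaphorin named here after its values were seen, was 6.61 to 108 CPM in all 12 columns of the BRP528 set (median 55.1) and 0 in all 8 of the BRP564 set. Among the F columns only F2 had a count of it, 0.181 CPM, which is within what a 0 allows. Sema4f was 0 to 142 CPM in the BRP528 set (median 31.5), counted in 11 of 12 columns, and was counted in 3 of 8 columns of the BRP564 set with at most 33.5 CPM. Sema7a, the lipid-anchored ligand of Plxnc1, was likewise counted in 11 of 12 columns of the BRP528 set (median 12.2 CPM) and in 2 of 8 of the BRP564 set, where it did not exceed 0.0617 CPM. Its highest value was in F2, at 90.5 CPM, above the 52.9 CPM of the highest BRP528 column, while F1 held 4.79 CPM and the other 6 F columns were at 0. Sema4b, also named after its values were seen, was low and went the opposite way, at 0.382 to 13.3 CPM in the BRP564 set, at most 0.255 CPM in the BRP528 set and 0 in the F set.

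Nrp1, the co-receptor for Sema3a, was 2.22 to 167 CPM in the BRP564 set (median 111) and 50.7 to 1014 CPM in the BRP528 set (median 148). The 2 sets overlapped: 7 of the 8 BRP564 columns lay between 81.7 and 167 CPM and BRP570 alone was at 2.22 CPM. F columns had at most 1.19 CPM, and 4 of 8 columns were at 0. Nrp2, the co-receptor for Sema3f, was 0 to 528 CPM in the BRP528 set (median 80.3), where it was counted in 11 of 12 columns, and 0 to 35.9 CPM in the BRP564 set (median 1.18). Per kb of exon Nrp1 was the higher neuropilin in 7 of 8 columns of the BRP564 set and 9 of 12 of the BRP528 set.

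Among the plexins, Plxna2 and Plxna4, the receptors of Sema6a, were high in the BRP528 set, and the B-type receptors Plxnb1 and Plxnb2 in the BRP564 set. The other A-type plexins did not follow Plxna2 and Plxna4: Plxna1 had medians of 13.9 CPM in the BRP564 set and 13.6 CPM in the BRP528 set, and Plxna3 of 2.50 and 1.23 CPM. Plxnb3, added after its values were seen, was low in both, with at most 1.06 and 4.38 CPM. Plxna2 stood at 45.5 to 1024 CPM in the BRP528 set (median 559) and at 9.70 to 228 CPM in the BRP564 set (median 85.1). The overlap came from BRP528 (45.5 CPM), BRP529 (132 CPM) and BRP566 (228 CPM). Plxna4 was 67.9 to 581 CPM in the BRP528 set (median 179) and 0 to 26.9 CPM in the BRP564 set (median 2.35), with no overlap.

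Plxnb1, the receptor of Sema4d, was 11.6 to 286 CPM in the BRP564 set (median 87.4), 0 to 56.2 CPM in the BRP528 set (median 0.0706) and at most 0.911 CPM in the F set. The highest BRP528 value was that of BRP529; the other 11 columns lay between 0 and 9.33 CPM, below the lowest of the BRP564 set. Plxnb2, a receptor for class 4 semaphorins, was 22.5 to 79.4 CPM in the BRP564 set (median 42.6) and 0 to 14.7 CPM in the BRP528 set (median 1.29), with no overlap, and 1 F column of 8 had a count. Both belong to the listed pairs and were singled out for their levels.

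Exonic counts of Plxna2 and Plxna4 in the F set were high or at 0 column by column. Plxna2 was 1320 CPM in F7, 844 in F11, 784 in F12, 506 in F1 and 171 in F2, and 0 in F6, F16 and F24. Plxna4 was 404 CPM in F12, 190 in F11, 89.0 in F6, 63.0 in F1 and 40.6 in F2, and 0 in the other 3. Without F12, the F median of Plxna2 was 171 in place of 338 CPM and that of Plxna4 was 40.6 in place of 51.8 CPM. F6 held 409 CPM of Plxna3 and F24 held 176 CPM of Plxna1. Scaled to the intronic total of the column, intronic Plxna2 followed its exonic level in 6 of the 8 F columns: 634 CPM in F7, 481 in F11, 410 in F12 and 115 in F2, against 7.75 in F16 and 1.94 in F24. It did not in F6, which held 1847 CPM, the highest of the F set, nor in F1, which held none. Plxnc1, the Sema7a receptor, was at 1 count or more the most widely counted of the 53 genes, in 27 of 28 columns. At 10 counts or more it was in 21 columns, behind Plxna2 in 25, Plxna4 in 23 and Sema6a in 22. Plxnc1 had a median of 1.63 CPM in the BRP564 set, 36.0 CPM in the BRP528 set and 1.66 CPM in the F set (2.57 CPM without F12).

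**Figure D3:**
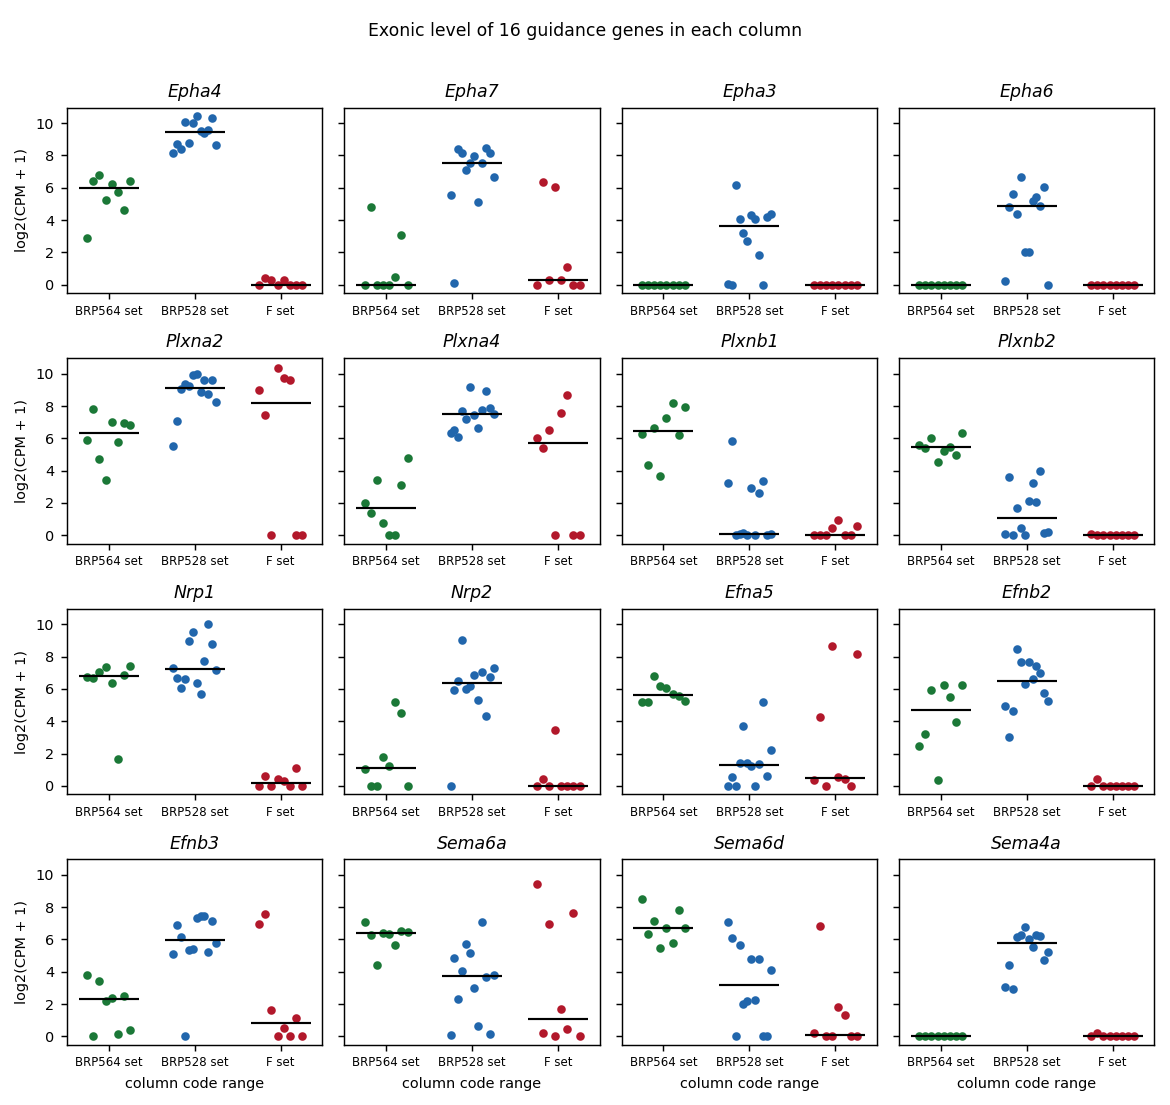
Exonic level of 16 of the genes as log2(CPM + 1), 1 point per column, by code set (8 columns of the BRP564 set, 12 of the BRP528 set and 8 of the F set); the line is the median. Points of the 2 BRP sets are fully apart for Epha4, Plxna4, Plxnb2 and Sema4a. F points lie near 0 with a few high values, except Plxna2 and Plxna4, which have 10 counts or more in 5 of 8.

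Among the ephrins, the summed ephrin-A level had a median of 58.7 CPM in the BRP564 set and 3.92 CPM in the BRP528 set. Efna5, an ephrin-A ligand of Epha5 and Epha4, was 35.1 to 110 CPM in all 8 columns of the BRP564 set (median 48.6), 0 to 35.4 CPM in the BRP528 set (median 1.42), and in the F set 398 CPM in F7 and 285 CPM in F24 against at most 18.4 CPM in the other 6. The BRP sets met at a single column, BRP541, whose 35.4 CPM lay between the 2 lowest values of the BRP564 set. Efna4 was low, at 0.0771 to 18.6 CPM in the BRP564 set and at most 0.0572 CPM, or 1 count, in the BRP528 set. Its lowest BRP564 value, in BRP569, was itself 1 count and lies below what a 0 allows, so these 2 columns cannot be told apart at this depth. Efna2 was low in both sets, with medians of 0.105 CPM in the BRP564 set and 0.692 CPM in the BRP528 set.

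Efnb2 and Efnb3 had their higher BRP medians in the BRP528 set. Efnb2 was 7.30 to 354 CPM there (median 88.7) and 0.303 to 74.9 CPM in the BRP564 set (median 29.0). Efnb3 was 0 to 174 CPM there (median 61.5), with BRP535 alone at 0, and 0 to 13.1 CPM in the BRP564 set (median 3.94). Efnb3 reached 186 CPM in F2 and 123 CPM in F1, while Efnb2 had counts in 1 F column only, 0.361 CPM in F2. Efnb1 was counted in all 20 BRP columns, with medians of 8.05 CPM in the BRP564 set and 1.88 CPM in the BRP528 set. Per kb of exon, the highest ephrin was Efna5 in 7 of 8 columns of the BRP564 set, and Efnb3 in 9 and Efnb2 in 3 of the 12 columns of the BRP528 set.

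Epha4, a receptor that binds ephrins of both classes, had the most exonic counts of the 53 genes, 198640 over all columns. It was 282 to 1384 CPM in the BRP528 set (median 699), 6.45 to 111 CPM in the BRP564 set (median 64.0) and at most 0.361 CPM in the F set, where 5 of 8 columns were at 0. No exonic value of one set reached into another, whereas intronic levels overlapped. Per kb of exon it was the highest Eph receptor in all 12 columns of the BRP528 set, with 37.6% to 81.5% of the summed Eph level per kb, and in 6 of 8 of the BRP564 set.

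Epha7 was 0.0895 to 350 CPM in the BRP528 set (median 184), where BRP529 alone was under 30 CPM, and was counted in 3 of 8 columns of the BRP564 set, up to 27.0 CPM. Among the F columns it stood at 80.0 CPM in F2, and Epha7 also led the Eph receptors per kb in F7 with 577 counts. Epha5, a receptor for ephrin-A ligands, was 4.07 to 193 CPM in the BRP528 set (median 52.5) and 0 to 29.8 CPM in the BRP564 set (median 0.539), and its highest value was 470 CPM in F1. Epha3 and Epha6, named after their values were seen, had exonic counts in BRP528 columns and in no other. Epha3 was counted in 10 of 12 columns with a median of 11.8 CPM and a highest value of 72.0 CPM in BRP534. Epha6 was counted in 11 of 12 with a median of 27.7 CPM and a highest value of 101 CPM in BRP536.

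All 5 EphB receptors were counted in both BRP sets. Ephb3 was counted in all 20 BRP columns, with medians of 6.97 CPM in the BRP564 set and 11.5 CPM in the BRP528 set and overlapping ranges. Ephb2 had a median of 8.79 CPM in the BRP564 set and 2.12 CPM in the BRP528 set, and its highest value, 82.1 CPM, was in BRP536 of the latter. Ephb1 had a median of 0.838 CPM in the BRP564 set and 34.5 CPM in the BRP528 set (0 to 151), and Ephb6, a receptor without kinase activity named after its values were seen, of 0.154 and 3.23 CPM. In the F set none of Ephb1, Ephb2 and Ephb3 exceeded 1.42 CPM, and the highest EphB value was 21.4 CPM of Ephb6 in F1.

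**Figure D4:**
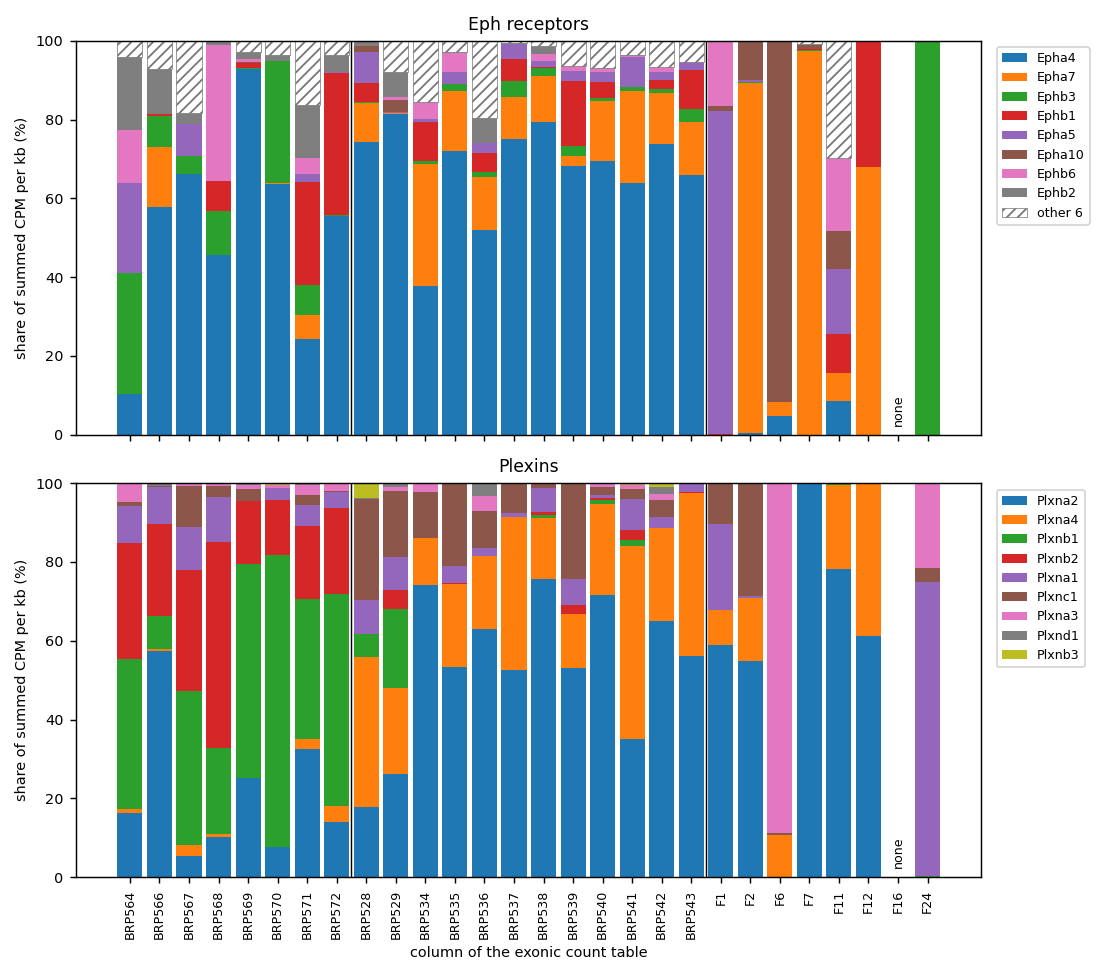
Share in percent of each Eph receptor (upper panel) and each plexin (lower panel) in the summed CPM per kb of exon of its family, for each column; lines part the code sets, and F16 had no count of either family. Epha4 fills 37.6% to 81.5% of the Eph bars in the 12 BRP528 columns. The largest plexin share in the BRP564 set is that of Plxnb1 in 6 columns, Plxnb2 in 1 and Plxna2 in 1 (BRP566, 57.3%). In the BRP528 set it is that of Plxna2 in 10 columns, down to 26.1% in BRP529, and of Plxna4 in 2. Several F bars rest on few counts, such as 3 counts of Ephb3 in F24.

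Counted over all 53 genes, 3 were higher in every BRP564 column than in every BRP528 column (Efna4, Plxnb2 and Sema4b), beside 2.24% of all genes of the table. A further 3 were lower in every one (Epha4, Plxna4 and Sema4a), beside 1.76%. These are 5.66% of the 53 in each direction, and 2 of the 3 higher ones rest on few counts in columns of different depth: Efna4 on 1 count in BRP569 against 1 in BRP540, and Sema4b on 6 in BRP566 against 5 in BRP543. With BRP528 and BRP529 left out, a choice made after seeing the data, 5 were higher (Plxnb1 and Sema3f joined, the latter on 1 count in BRP564 against 1 in BRP542), beside 3.48% of all genes, and 5 were lower (Epha7 and Plxna2 joined), beside 2.66%. Every BRP column was above every F column for 2 of the 53 (3.77%), Epha4 and Nrp1, beside 4.44% of all genes, a share near the background. For Nrp1 the lowest BRP value, 2.22 CPM in BRP570, lies below the 3.58 CPM that a 0 allows in F16. The part of the cell type markers above in these differences was not tested.

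More than 50% of the summed scaled level lay in a single column for 7 of the 51 genes with a count (13.7%), a smaller share than the 38.1% over all genes with a count. Efna3 was the extreme, with 96.5% of its level in BRP543 (144 of 150 counts). Plxna3 had 78.5% and Sema4g 71.9% of theirs in F6. Sema4d had 77.6% in BRP540, Sema6c 66.1% in BRP528, Sema5a 56.2% in F2 and Epha2 51.9% in BRP567. The class 4 ligand Sema4d thus rested on 367 of 444 counts from 1 cell, although it was counted in 16 columns.

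Ligands and receptors known to bind were counted in the same cells in varying numbers. Of 19 pairs, 13 had at least 1 count of both genes in 14 or more of the 28 columns (68.4%), beside 18.2% of all 275009878 pairs of genes in the table. Taken singly, 69.8% of the 53 genes were counted that widely. Sema6a with Plxna2 was the most frequent, in 24 columns, followed by Sema6a with Plxna4 in 23 and by Epha4 with Efnb2 and with Efnb3 in 21 each. At 10 counts or more of both genes, Sema6a and Plxna2 remained together in all 8 columns of the BRP564 set, 10 of 12 of the BRP528 set and 2 of 8 of the F set. Sema3a with Nrp1 was found at 10 counts in 11 of 12 columns of the BRP528 set, 2 of 8 of the BRP564 set and no F column. Sema4d with Plxnb1 reached 10 counts together in 5 columns and Sema3f with Nrp2 in 4. The 2 genes of a pair share the depth of their column, and nothing here shows that they signal to each other.

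Genes of other guidance families and of signalling behind these receptors were listed beside them. The guidance list held 23 genes: netrin, Slit, Robo, Unc5 and repulsive guidance genes, and Dcc, Neo1, Dscam and Draxin. Of these, 22 had a count (Robo4 at 0), beside the 83.2% of all genes, and 15 were counted in at least 14 columns, beside the 45.4%. Their summed level was 108 to 470 CPM in the BRP564 set, 407 to 1054 CPM in the BRP528 set and 2.39 to 1234 CPM in the F set. The netrin receptor Unc5a and the ligand Slit1, singled out after their values were seen, were counted in all 12 BRP528 columns and in no BRP564 column. The lowest Slit1 value of the BRP528 set was 0.0498 CPM, which is within what a 0 allows. Unc5d, likewise singled out, was at most 15.7 CPM in the BRP564 set and at least 20.2 CPM in the BRP528 set. Rgma, singled out in the same way, went the other way, with 5.71 to 36.7 CPM against at most 4.14 CPM. Of all genes, 1.76% were lower and 2.24% higher in every BRP564 column than in every BRP528 column. All 37 signalling genes had a count and 33 were counted in at least 14 columns, beside 83.2% and 45.4% of all genes. Crmp1, a collapsin response mediator of semaphorin signalling, was counted in all 28 columns, at a median of 15.4 CPM in the BRP564 set, 229 CPM in the BRP528 set and 75.5 CPM in the F set (8.51 CPM without F12). Rac1, a GTPase downstream of plexins and Eph receptors, stood at medians of 899, 642 and 352 CPM, the last of which was 4.95 CPM without F12.

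The intronic table added 942460 counts to the 962665 exonic counts of the 53 genes. In each column the intronic share of their counts was above that of all genes. It was 14.6% to 58.0% in the BRP564 set (median 32.2%, all genes 8.75%), 13.3% to 77.3% in the BRP528 set (median 37.5%, all genes 15.7%) and 36.4% to 90.2% in the F set (median 85.3%, all genes 50.4%). F1, at 36.4%, was the F column with the lowest share and the highest exonic total. Epha6 alone gave 29.5% of the intronic counts of the 53 genes, and Epha5 and Epha6 together 45.6%.

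These 2 receptors lie across long introns: Epha6 at chr16:59653483-60605531 has 947 kb of annotated intron and Epha5 at chr5:84054761-84417382 has 346 kb. Epha6 had intronic counts in all 28 columns, also in the 16 columns where Epha6 had no exonic count among the BRP564 and F sets. Its intronic level, in CPM of the intronic total of the column (intronic CPM), was 26.1 to 1198 in the BRP564 set, 565 to 9875 in the BRP528 set and 20.0 to 1707 in the F set, so the BRP528 set was highest by both kinds of count. Epha5 reached 21836 intronic CPM in F1, the column with its highest exonic level, and 6498 in F6. For 19 genes intronic counts outnumbered exonic ones, and for the other 34 they did not. The same count was not made over all genes of the tables, so whether 19 is many for genes of such length was not tested. The 19 genes had a median of 117 kb of intron and the other 34 a median of 21.2 kb.

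Several genes stood apart from that order, Sema6d and Sema6b among them. Plxnb3, with 8.93 kb of intron, had 1558 intronic and 258 exonic counts. Sema3e, with 222 kb, had 2602 intronic and 12789 exonic counts. Sema6d, at chr2:124089969-124667770 with 567 kb of intron and 26501 exonic counts, was listed with 0 intronic counts in all 28 columns. Sema6b, at chr17:56123085-56140343 with 13.3 kb of intron and named after its values were seen, had 35627 intronic counts against 4032 exonic ones. Per kb of intron that was higher than in 99.7% of 16006 genes. Its intronic level lay between 124 intronic CPM in F6 and 1883 in F12, with 704 in BRP529 the next highest. That of Epha5 lay between 6.85 in F7 and 21836 in F1 (6498 without F1), and that of Epha6 between 20.0 in F11 and 9875 in BRP540 (6037 without BRP540). Intronic counts of Sema6b were present in 8 columns without an exonic count of it. No other annotated gene lies within Sema6b, and 2 long noncoding RNAs lie on the opposite strand within Sema6d. Antisense genes overlap 14.1% of the annotated exon length of Efna3, 10.7% of that of Plxna1 and 10.5% of that of Efna4. None of these antisense genes is listed in the exonic table. Zyx, on the opposite strand, overlaps 6.01% of the exon length of Epha1 and had 10251 exonic counts, against 16 of Epha1. Without a stated strand setting the reads of overlapping genes cannot be told apart.

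For the 6 genes whose exonic levels did not overlap between the BRP sets (Efna4, Plxnb2, Sema4b, Epha4, Plxna4 and Sema4a), the intronic ranges overlapped. Efna4, Plxnb2, Sema4b and Sema4a had columns at 0 intronic counts in both BRP sets, so their ranges had to overlap. Efna4 and Plxnb2 had only 30 and 17 intronic counts in all. For these genes the overlap says nothing of the exonic difference. Epha4 was at 6.52 to 877 intronic CPM in the BRP564 set and at 1.33 to 934 in the BRP528 set, and its highest value was 1388 in F6, beside an exonic level of 0.249 CPM.

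Intronic levels of single columns could be as uneven as exonic ones. Epha10, chosen for its value in F6 and with 15416 intronic and 556 exonic counts, reached 2120 intronic CPM in F6 and at most 67.7 in any other column. Plxna4 was at 5039 and Sema6a at 2506 intronic CPM in F11, and at 4226 and 2533 in F12, whereas the exonic level of Sema6a there was 2.28 and 0.369 CPM. In the other F columns the intronic level was at most 39.1 intronic CPM for Plxna4 and 660 for Sema6a. For Plxna4 the next highest column was BRP568, at 4048 intronic CPM, with an exonic level of 0.667 CPM.

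**Figure D5:**
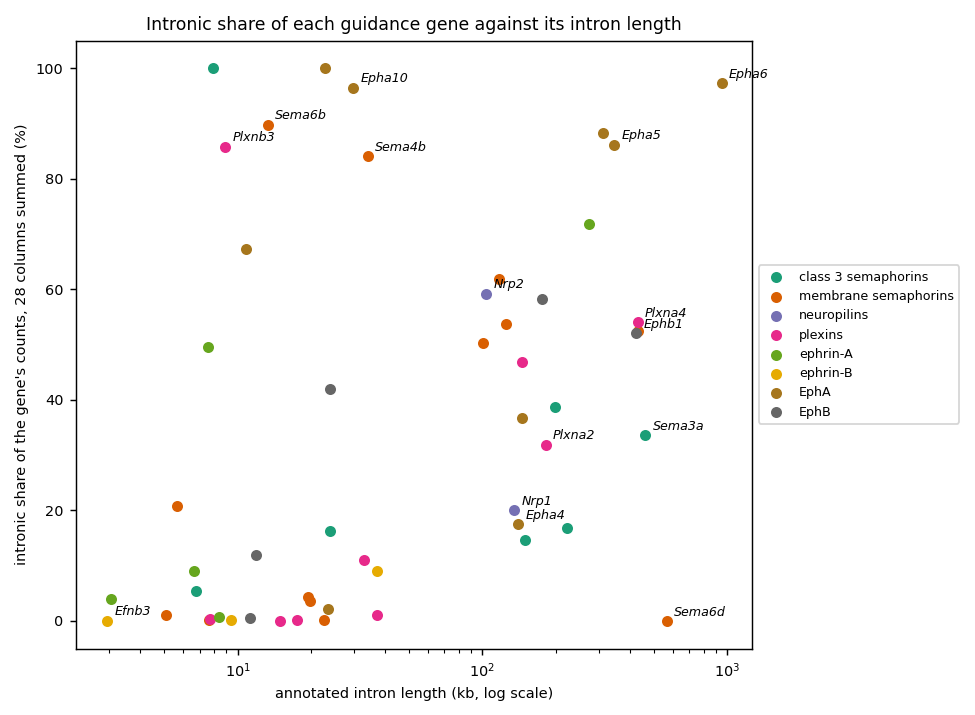
Intronic share of each gene's counts, summed over the 28 columns, in percent, against its annotated intron length in kb (log scale); 1 point per gene, coloured by role, with some genes named. Genes with short introns lie mostly near 0%, and Sema6b (13.3 kb) and Sema6d (567 kb) lie far from their neighbours in length.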

How the data were processed

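Single-cell RNA-seq of 28 mouse cortex cells (12 neurons, 8 astrocytes and 8 interneurons by the labels) was used as deposited. Counts deposited by the authors are whole numbers for each gene and column, without scaling, over exons in one table and over introns in the other. The submitters' processing notes list bcl2fastq 2.17, STAR 2.4.0 and mm10. The counting tool, annotation and strand setting are not given in the sources used here, so reads of a gene and of an antisense or overlapping partner cannot be told apart. Exonic totals per column were 838343 to 26770944.

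Members and lists were chosen with earlier results of these data known. Counts were scaled to CPM of the column's exonic or intronic total. Detection means at least 1 exonic count. Named genes are, by role, the 3 counted in most columns at 10 counts or more, those at 0 exonic or intronic counts, and those with more than 50% of the level in 1 column. The genes of the 19 pairs could also be named. Gene positions and lengths came from GENCODE M21, in which all 53 genes were found by symbol, and promoter windows from RefSeq on GRCm38.p6. Intervals are exact (95%) and cover counting error only, since reads without molecular identifiers are not independent molecules. Scaling and thinning were tested on simulated data. Python 3.11.15 with numpy 2.4.6, pandas 2.3.3, scipy 1.17.1 and matplotlib 3.10.9 served for all values. Alternative scalings came from edgeR 4.0.16 and DESeq2 1.42.0 in R 4.3.3.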

Additional observations from a re-analysis of the deposited data

How the results depend on the processing

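A count, the number of genes per column included, was taken as moved beyond 1.5 times, and the summed level, the intronic share and the level of a gene outside the range they took when each column was left out in turn. That range was 34 to 35 genes per column, 1279 to 1370 CPM for the summed level and 41.6% to 43.1% for the intronic share, and 51 and 37 of the 53 genes throughout. Genes counted in at least 14 columns fell from 37 to 24 at 10 counts, to 23 with every column thinned to 800000 counts, and to 17 in at least 4 of the 8 F columns. The pairs counted together in at least 14 columns fell from 13 to 8 at 10 counts and to 7 after thinning. The median number per column, 34.5, became 17.5 in the F columns, 36 in the BRP columns, 29 at 5 counts, 28 at 10 counts, 26.5 after thinning and 44 with intronic counts added. The median summed level, 1324 CPM, became 2383 with intronic counts added, 1578 in the BRP columns, 1166 in the F columns, 1395 without BRP528 and BRP529, 1604 with edgeR's TMM factors, 1689 with DESeq2 size factors, 1484 without the 10 genes with most counts, and 948 without each column's leading gene. The median intronic share, 42.4%, became 34.1% in the BRP columns, 85.3% in the F columns, 44.5% without BRP528 and BRP529, 44.0% over genes with an intronic count, 36.4% without Epha6, 41.1% without Sema6b and 32.3% without Epha5 and Epha6. Of genes not overlapping between the BRP sets there were 6, and 10 without BRP528 and BRP529. The alternatives without BRP528 and BRP529, without F12, without Sema6b and without Epha5 and Epha6 were chosen after seeing the data. The cause of these changes was not tested. DESeq2 size factors rest on 226 genes counted in every column and shifted single columns by up to 4.29 on the log2 scale, and TMM factors by up to 3.64. Of 96 alternative values for single named genes, 35 lay outside their leave-one-out range. No paired analysis was possible because the columns carry no replicate number and could not be matched to samples. Depth limits the F columns most, where a 0 allows up to 3.58 CPM by counting error alone.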
